A study of Homo sapiens with 19 samples.

Results

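Ascorbate (vitamin C, vit C) keeps the iron of many 2-oxoglutarate-dependent dioxygenases in its reduced, active state. The enzymes considered here belong to that class and take methyl groups off histones or oxidise methylated DNA, namely JMJD1A, JMJD1B, JMJD2A, JMJD2B, JMJD2C, JMJD3, UTX, FBXL10, FBXL11 and TET2. These are the older names, still used by the array, for KDM3A, KDM3B, KDM4A, KDM4B, KDM4C, KDM6B, KDM6A, KDM2B, KDM2A and TET2, except that JMJD2B stands on the array under its newer name, KDM4B. The 10 genes were chosen as known ascorbate-dependent demethylases whose gene name on the array matched, and 16 probes measured them, out of 31033 gene names and 50238 probes. The cofactor role of vit C acts on the enzymes' activity, and the arrays measured only the amount of their mRNA. In RNA from a whole flask, fewer cells that express a gene and less of its mRNA per cell cannot be told apart.

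RNA came from THP-1 cells, a human acute monocytic leukaemia line, turned into macrophage-like cells with 30 nM PMA (phorbol myristate acetate), which every group received. After a rest the cells were left untreated (UT) or given 0.1 mM vit C and harvested 8, 24, 48 and 96 h later, so all results describe 1 cell line and 1 dose. UT cells were measured on 2, 3, 2 and 3 one-colour Agilent arrays at the 4 times and vit C-treated cells on 3, 2, 2 and 2, making 19. The replicates came from separate flasks. Of 11 monocyte and macrophage markers on the array, 9 were well above background on all 19 arrays, CD14, CD68 and CSF1R among them, while MRC1, a mannose receptor, was on none. Among the markers of other cell types 6 were on no array, while ALB, CD3E and VWF were on all 19 with median signals of 77.6, 48.6 and 136 on the linear scale. ITGAM was lower in vit C-treated cells at 48 h (log2 fold change -1.17, limma q = 0.00426) and LYZ higher at 96 h (1.17, q = 0.0479). The detected monocyte and macrophage markers had a median of -0.16, -0.29, -0.27 and -0.08 at the 4 times, and the part of this in the results below was not tested.

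Histones and DNA carry methyl marks that differ in their meaning, and the members act on different ones. JMJD1A and JMJD1B remove the heterochromatin mark of histone H3 from its singly and doubly methylated forms, and the JMJD2 enzymes remove its trimethylated form as well as a mark of transcribed gene bodies. JMJD3 and UTX remove the mark laid down by Polycomb. FBXL10 and FBXL11 act on the histone residue of the gene-body mark and bind unmethylated CpG islands, and TET2 converts methylated cytosine to hydroxymethylcytosine. In macrophages JMJD3 is known as a gene induced by inflammatory signals, and TET2 as one often mutated in myeloid disease.

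The probes are 60 bases long, and the first 30 bases of those for the 2 genes whose probes are followed most closely below are given 5′ to 3′, since each value is what one such sequence bound. Both FBXL10 probes fell with time, and the JMJD1A probes disagreed at 24 h.
FBXL10 probe 1: ggacaacagaccacaacgcaattccatttt
FBXL10 probe 2: gatgtctgtgagtgtccagtttgggcaagt
JMJD1A probe 1: gtgaaagatgcagttgctatgctgaaagcc
JMJD1A probe 2: ccaacttgtgagggtactctgtctaatgta
JMJD1A probe 3: tcataccaatcacgaagataaattacaggg

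In RefSeq's promoter table (GRCh38.p14), 17 start sites of the 10 genes were found, and the 250 bases before each were read. Their GC content ran from 45.6% to 83.6%. The letters ACGTG, the core bound by hypoxia-inducible factors, were searched on both strands, because JMJD1A, JMJD2B and JMJD2C are textbook hypoxia-induced demethylases and the factors themselves are held down by dioxygenases of the same class. Matches that overlap on the 2 strands count as 1 place. They occurred in 5 of the 17 windows (29.4%), against 18.5% of 35116 windows of the same length, and 4 genes held them: JMJD2B 241 bases before the start, JMJD2C 63 and 31 bases before, UTX 113 and 95 bases before, and TET2 at 14 and 108 bases before its 2 starts. A match is a run of letters and not a bound site. Shown 5′ to 3′ on the gene's strand, with the matches in capitals, are the windows of the 3 hypoxia-induced members (the first listed start of JMJD1A) and the first listed of the 4 FBXL10 starts, FBXL10 being the gene with most calls over time.
JMJD1A, chr2:86441121-86441370, plus strand: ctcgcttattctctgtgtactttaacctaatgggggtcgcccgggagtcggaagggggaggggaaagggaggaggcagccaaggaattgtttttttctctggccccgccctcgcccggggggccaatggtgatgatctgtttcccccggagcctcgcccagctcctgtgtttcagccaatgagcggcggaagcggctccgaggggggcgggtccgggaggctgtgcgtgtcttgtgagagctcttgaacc
JMJD2B, chr19:4968863-4969112, plus strand: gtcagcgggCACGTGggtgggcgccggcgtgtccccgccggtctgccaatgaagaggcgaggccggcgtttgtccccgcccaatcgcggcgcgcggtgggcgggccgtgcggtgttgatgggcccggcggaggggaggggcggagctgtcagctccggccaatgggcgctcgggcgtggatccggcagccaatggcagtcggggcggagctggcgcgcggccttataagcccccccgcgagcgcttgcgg
JMJD2C, chr9:6757723-6757972, plus strand: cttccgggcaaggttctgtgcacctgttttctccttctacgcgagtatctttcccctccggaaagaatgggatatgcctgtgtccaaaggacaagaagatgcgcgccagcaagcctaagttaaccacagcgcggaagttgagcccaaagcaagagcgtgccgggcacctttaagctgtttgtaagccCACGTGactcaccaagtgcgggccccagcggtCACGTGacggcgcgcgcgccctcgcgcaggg
FBXL10, chr12:121581024-121581273, minus strand: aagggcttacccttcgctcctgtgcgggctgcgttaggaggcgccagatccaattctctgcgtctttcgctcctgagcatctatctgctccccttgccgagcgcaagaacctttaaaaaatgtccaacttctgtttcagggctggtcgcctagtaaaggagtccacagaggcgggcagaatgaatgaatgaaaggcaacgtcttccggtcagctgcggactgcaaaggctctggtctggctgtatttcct

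All values below are normalized log2 signals, that is the log2 of the scanner software's processed signal minus the 75th percentile of its array, so 0 is the level that 1 in 4 probes exceed. A fold change is vit C-treated minus UT, or a later time minus 8 h, on the same scale. A probe counted as differentially regulated (DRG) when it changed 2-fold or more in either direction with a limma q no higher than 0.05, adjusted by Benjamini-Hochberg over all 50238 probes. Each gene is given by its brightest probe, numbered 1. Of the 16 probes 12 were well above background on all 19 arrays. UTX was on none, with a processed signal of 2.74 to 11.4, and no fold is given for it. JMJD3 was on 13 arrays, JMJD1A probe 1 on 18 and TET2 probe 2 on 17. The arrays lay on 4 slides, where 8 of the 10 UT arrays shared a slide and 6 of the 9 vit C-treated arrays another with the other 2 UT arrays (96 h). The vit C-treated 96 h arrays had a slide and a scan day to themselves, so there treatment and slide cannot be told apart. UT 96 h replicate 3 correlated with the other UT 96 h arrays at r = 0.968 and 0.962 across probes, the lowest within any group, and values that rest on it are named below. Every vit C difference given with the slide as a term also rests on it, since UT 96 h alone spans the main UT and vit C slides. Replicate 1 lies on the former, and replicates 2 and 3 lie on the latter. With that term the UT change from 8 to 96 h uses replicate 1 alone at 96 h. The 48 h difference uses 1 vit C-treated array, the other having a slide to itself.

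**Figure D1:**
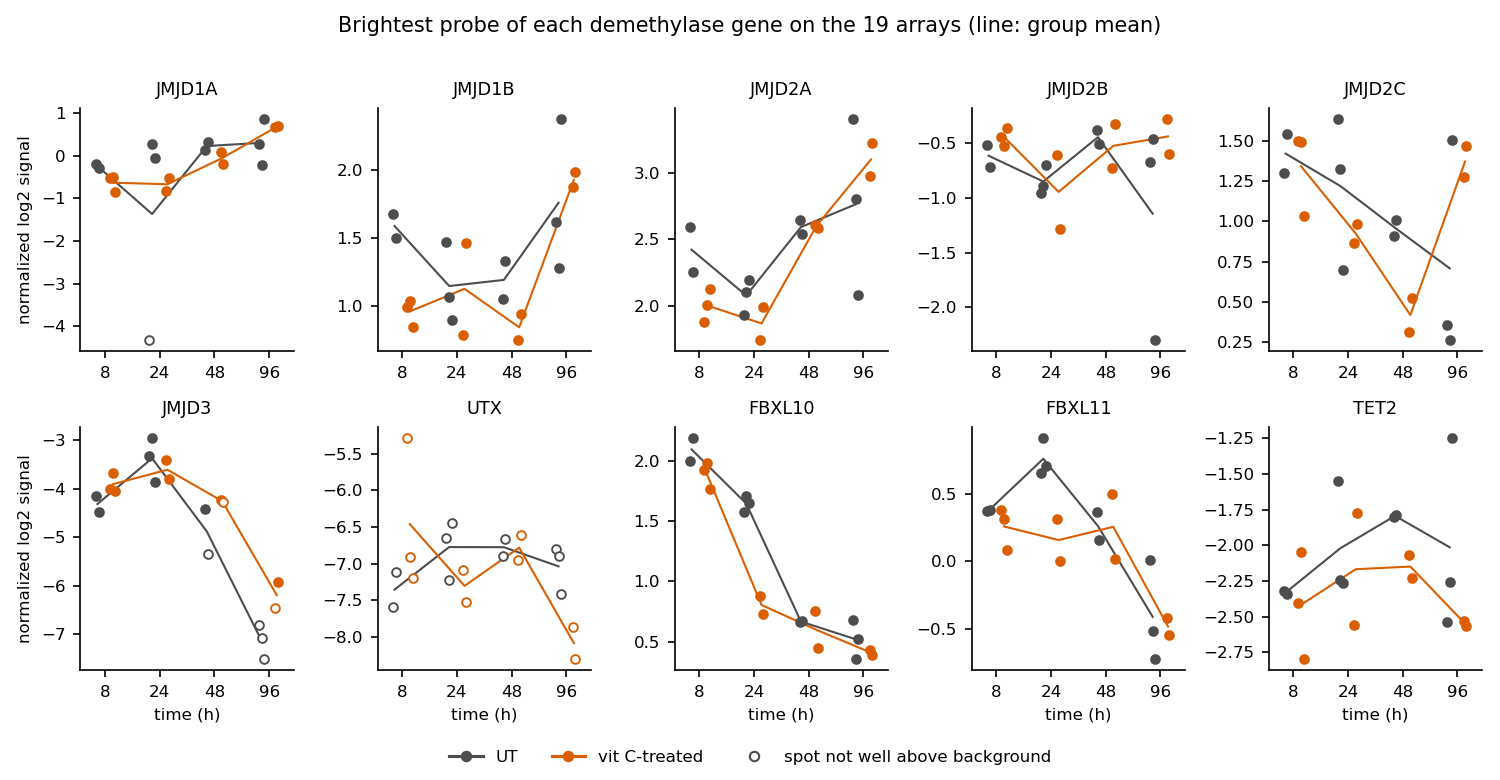
Normalized log2 signal (y axis) of the brightest probe of each gene against time in hours (x axis, evenly spaced), 1 point per array and lines through group means. Each panel has its own scale. FBXL10 and JMJD3 are lower at 96 h than at 8 h under both treatments, JMJD1A has 1 UT array of 24 h at -4.34, and all UTX points are hollow, that is, not well above background.

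Vit C-treated cells had no member called as a DRG at any time. At 8 h, 0 of the 16 probes passed, where 0.243% of all probes did. The count was also 0 at 24 h (1.00% of all probes), 48 h (2.09%) and 96 h (8.57%), and for the mean effect over the 4 times (2.46%). With the fold set aside, q reached 0.05 for 0, 1, 0 and 0 probes at the 4 times, where 0.253%, 1.20%, 2.42% and 11.3% of all probes did. The unadjusted p was 0.05 or lower for 0, 3, 1 and 2 of the 16, where 11.2%, 15.7%, 14% and 26.3% of all probes had such a p. The 2 at 96 h were the dim probes of JMJD3 and UTX. No member passed 2-fold and the methods' t-test after adjustment, where 1, 0, 3 and 0 of all probes did. The arrays of the 2 groups did not overlap for 6, 6, 7 and 3 of the 16 probes at 8, 24, 48 and 96 h, against 36.6%, 29.8%, 47.7% and 37.6% of all probes, so the members' shares lay near the background or, at 96 h, below it. Of the 9 genes other than UTX, vit C-treated cells had the higher mean for 2, 1, 2 and 6 at 8, 24, 48 and 96 h, and the median log2 fold changes were -0.12, -0.21, -0.08 and 0.34. Over all gene names with a detected brightest probe the medians were -0.09, -0.01, -0.07 and -0.05. When the model also held the slide, 5 of the 9 were higher at each of 8, 24 and 48 h, so the direction of the small differences depended on that term. The term was set by the UT 96 h arrays, replicate 3 among them, and whether the slide itself turned the differences was not tested. At 96 h 5 to 7 were higher under the other scalings, with medians of 0.11 to 0.43, and 5 with a median of 0.13 without UT 96 h replicate 3.

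**Figure D2:**
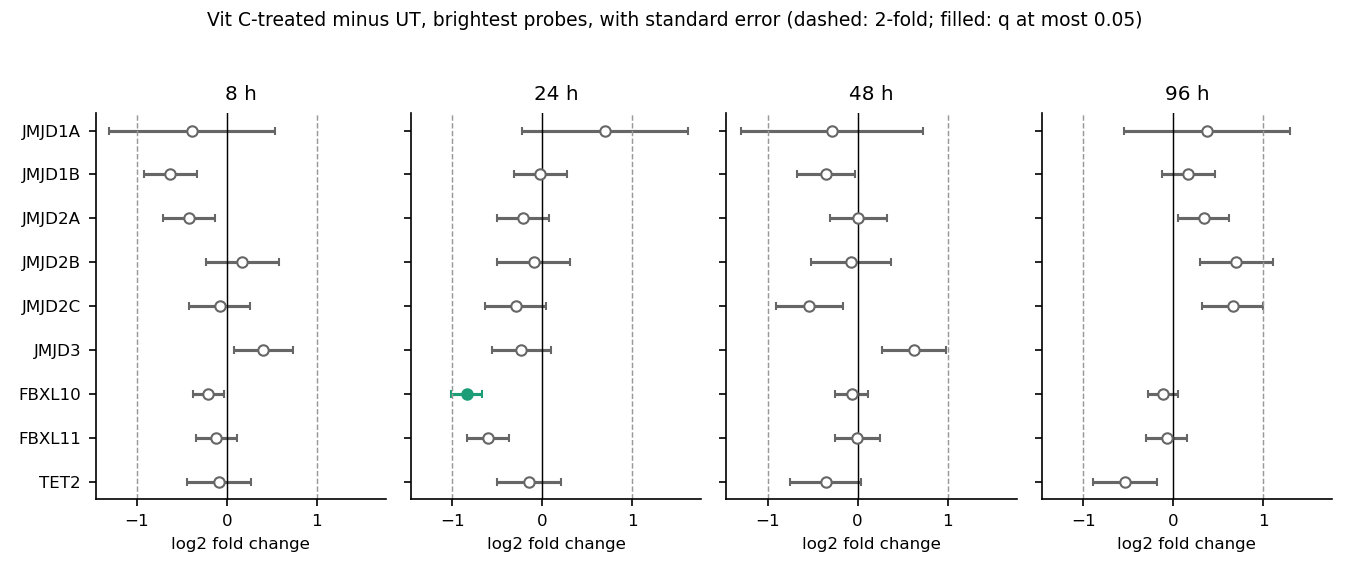
Log2 fold change of vit C-treated against UT cells (x axis) with its standard error for the brightest probes of 9 genes at each time. UTX and JMJD3 at 96 h are left out because a compared group had no array well above background. Every point lies between the dashed 2-fold lines, and only FBXL10 at 24 h has q at most 0.05.

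FBXL10, which removes methyl groups from the histone residue of the gene-body mark and brings a variant Polycomb complex to CpG islands, gave the only vit C difference with a q at or under 0.05. On probe 1 the UT arrays read 2.00 and 2.19 at 8 h, 1.57, 1.71 and 1.65 at 24 h, 0.66 and 0.67 at 48 h, and 0.68, 0.36 and 0.52 at 96 h. The vit C-treated arrays read 1.92, 1.98 and 1.76 at 8 h, 0.88 and 0.73 at 24 h, 0.75 and 0.45 at 48 h, and 0.43 and 0.39 at 96 h. Both treatments thus began high and ended low, and at 24 h the vit C-treated arrays already stood near the later level while all 3 UT arrays were above them without overlap. The log2 fold change at 24 h was -0.84 (standard error 0.17, q = 0.0301), short of 2-fold, where 1.20% of all probes had a q at or under 0.05. Probe 2 read 0.28, 0.58 and 0.53 in UT and -0.21 and -0.73 in vit C-treated cells at 24 h, also without overlap. Its log2 fold change of -0.93 missed the threshold (q = 0.0672). At 48 h the 2 probes had log2 fold changes of -0.07 and 0.37, and at 96 h of -0.11 and 0.23, so they went in opposite directions and none was called. Without UT 96 h replicate 3 the 96 h value of probe 2 was 0.12 (q = 0.736). Averaged over the times, probe 1 was lower by a log2 fold change of -0.31 (q = 0.0395, where 10.5% of all probes passed at any fold) and probe 2 had -0.09 (q = 0.647).

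The difference of FBXL10 at 24 h kept its direction in other fits but not its q. With each of the 5 arrays left out in turn the log2 fold change of probe 1 lay between -0.92 and -0.76, and its q between 0.062 and 0.248. With the slide as a term the log2 fold change was -0.60 (q = 0.674), and at 24 h all UT arrays lay on one slide and all vit C-treated arrays on another. An F test of whether the vit C effect differed between the 4 times gave q = 0.22 for probe 1 and 0.144 for probe 2, and 0 of the 16 probes passed it, where 0.944% of all probes did, and 3 had an unadjusted p of 0.05 or less (18.3% of all probes), both FBXL10 probes and the dim UTX.

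The fall of FBXL10 with time was larger than the spread between arrays under both treatments. In UT cells the log2 fold change from 8 h was -0.45 (q = 0.243) at 24 h, -1.43 (standard error 0.19, q = 0.000229) at 48 h and -1.57 (0.17, q = 1.63e-05) at 96 h. In vit C-treated cells it was -1.08 (0.17, q = 0.00161) at 24 h, -1.29 (q = 0.000123) at 48 h and -1.48 (q = 2.11e-05) at 96 h. Probe 2 gave -1.68 and -1.74 in UT and -1.37, -1.28 and -1.49 in vit C-treated cells, all called. The 2 probes followed each other over the 19 arrays with r = 0.96. These time courses share their 8 h arrays with one another and their later arrays with the comparisons above. Probe 1 was called at 48 and 96 h with each array left out in turn, under both treatments. The methods' t-test called neither FBXL10 probe in UT cells at 48 or 96 h nor in vit C-treated cells at 24 h, and at 48 h in the latter it did not call probe 2. At 24 h a fit of the compared groups alone also called neither in vit C-treated cells, and probe 2 was not called without vit C 24 h replicate 2.

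**Figure D3:**
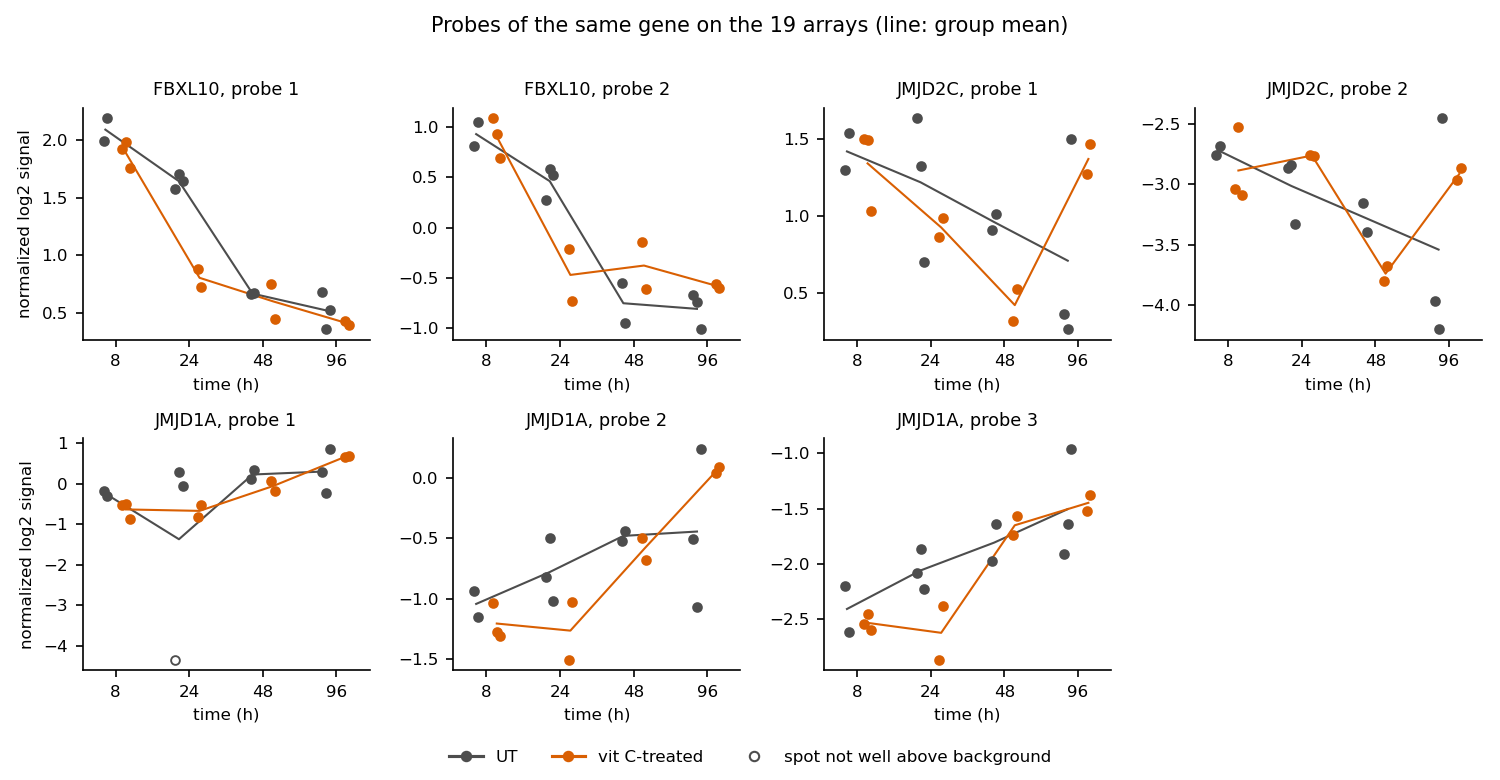
Normalized log2 signal (y axis) of each probe of FBXL10, JMJD2C and JMJD1A against time (x axis, hours), 1 point per array and lines through group means. Both FBXL10 probes show vit C-treated arrays below UT arrays at 24 h, JMJD2C has UT 96 h replicate 3 above the other UT 96 h arrays on both probes, and the low UT 24 h point of JMJD1A is on probe 1 alone.

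FBXL11, the close relative of FBXL10, was flatter. Its UT arrays read 0.37 and 0.38 at 8 h, 0.65, 0.91 and 0.71 at 24 h, 0.36 and 0.16 at 48 h, and 0.01, -0.52 and -0.72 at 96 h. The vit C-treated arrays read 0.38, 0.31 and 0.08 at 8 h, 0.31 and -0.00 at 24 h, 0.49 and 0.01 at 48 h, and -0.42 and -0.55 at 96 h. The 96 h arrays of either treatment were all below those of 8 h, and at 24 h the vit C-treated arrays were below the UT arrays. From 8 to 96 h the log2 fold change was -0.79 (standard error 0.23, q = 0.0306) in UT and -0.74 (q = 0.0255) in vit C-treated cells, under 2-fold both times, where 15.9% and 31.3% of all probes had a q at or under 0.05. In UT cells it was -0.63 (q = 0.0689) without UT 96 h replicate 3, and q was also above 0.05 without UT 96 h replicate 2. With the slide as a term it was -0.37, which is UT 96 h replicate 1 alone against the UT arrays of 8 h. Leaving out either UT array of 8 h left 1 array in that group, and no q is given for it. In vit C-treated cells q lay between 0.0335 and 0.16 with single arrays left out, under 0.05 only without vit C 8 h replicate 3. The vit C difference at 24 h was -0.60 (q = 0.231), and 0.03 with the slide as a term. At 96 h it was -0.07, and -0.23 (q = 0.489) without UT 96 h replicate 3. Across the 19 arrays FBXL10 and FBXL11 correlated at r = 0.67, the highest among the 7 members measured on every array, a description in which time and array are shared.

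JMJD3, the inducible Polycomb-mark demethylase, had a dim probe that was lowest at 96 h. In UT cells it read -4.15 and -4.48 at 8 h, -3.32, -2.95 and -3.86 at 24 h, -4.41 and -5.35 at 48 h, and -6.81, -7.07 and -7.51 at 96 h. In vit C-treated cells it read -4.00, -3.67 and -4.06 at 8 h, -3.41 and -3.81 at 24 h, -4.23 and -4.28 at 48 h, and -6.47 and -5.92 at 96 h. All 5 arrays of 96 h lay below all arrays of the earlier times. The spot was well above background on 2 of 2, 3 of 3, 1 of 2 and 0 of 3 UT arrays and on 3 of 3, 2 of 2, 1 of 2 and 1 of 2 vit C-treated arrays. From 8 to 96 h the measured log2 fold change of JMJD3 in UT cells was -2.81 (q = 3.09e-05), with no 96 h array well above background. Counted against the lowest signal that was well above background, JMJD3 was at least 1.63-fold lower, a bound that was not itself tested. In vit C-treated cells the measured log2 fold change was -2.29 (q = 0.000155), which includes the 96 h array that was not well above background. With signals floored at 20 the vit C change was -0.57 and not called. UT signals were 19.3 to 33.0 at 8 h and 3.34 to 3.43 at 96 h, so the UT fall also lay mostly under that floor. The vit C-treated arrays were above the UT arrays at 8, 48 and 96 h without overlap, with log2 fold changes of 0.41 (q = 0.719) and 0.63 (q = 0.497) at 8 and 48 h, while at 24 h they overlapped (-0.24). With the slide in the model they were 0.89, 0.25 and 1.13 from 8 to 48 h, none called. At 96 h no fold is given (q = 0.079), and the order turned with normexp background correction.

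UTX, the constitutive relative on the X chromosome, was not well above background on any array. Its probe read between -8.30 and -5.28, and a calling of UTX between vit C-treated arrays of 96 h and 8 h (q = 0.0156) compared signals that were all dim, so it is not described as a change. Of 9 partners of UTX in the MLL3 and MLL4 complexes, 8 were on the array, all above background in a compared group, and 0 of these were called by their brightest probe at any time. By another probe MLL3, a writer of an enhancer mark, was higher at 96 h (1.00, q = 0.0338), with 0.47 (q = 0.786) on its brightest.

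JMJD1A, a hypoxia-induced demethylase of the heterochromatin mark, had 3 probes. Probe 1 read -0.19 and -0.30 in UT at 8 h, -4.34, 0.28 and -0.05 at 24 h, 0.13 and 0.33 at 48 h, and 0.28, -0.23 and 0.86 at 96 h. In vit C-treated cells it read -0.54, -0.50 and -0.86 at 8 h, -0.82 and -0.52 at 24 h, 0.08 and -0.19 at 48 h, and 0.66 and 0.70 at 96 h. The value of -4.34, on UT 24 h replicate 1, was a spot not well above background, while probes 2 and 3 on the same array read -0.82 and -2.08, within the range of the other 2 UT arrays of 24 h. Because of it the vit C difference at 24 h was 0.70 (standard error 0.92, q = 0.712) on probe 1, against -0.49 and -0.56 on probes 2 and 3 (q = 0.401 and 0.319), and -0.78 on probe 1 without that array (q = 0.26). Holding the slide gave 0.66, -0.57 and -1.18 on the 3 probes, the last with an unadjusted p of 0.015 and q = 0.518.

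JMJD1A rose late in vit C-treated cells. Probe 2 read -1.03, -1.27 and -1.31 at 8 h and 0.04 and 0.09 at 96 h, and probe 3 read -2.54, -2.46 and -2.60 against -1.52 and -1.37, neither with overlap. The log2 fold changes were 1.28 (standard error 0.30, q = 0.00714) and 1.09 (0.26, q = 0.00829), and 1.31 (q = 0.301) on probe 1. In UT cells the 3 probes had 0.55, 0.60 and 0.90, of which the last had q = 0.0301 and stayed short of 2-fold. Without UT 96 h replicate 3 they had 0.27, 0.26 and 0.63 (q = 0.064 for the last). With the slide as a term probe 3 had 0.50, which is UT 96 h replicate 1 alone against the UT arrays of 8 h. Leaving out either UT array of 8 h left 1 array in that group, and no q is given for it. Between the treatments at 96 h the probes differed by 0.38, 0.51 and 0.06, all uncalled, and UT 96 h replicate 3 was above both vit C-treated arrays on each. Without it they differed by 0.66, 0.86 and 0.33, with q = 0.0217 for the second and no call. The calls of probes 2 and 3 were lost without vit C 96 h replicate 2 and with normexp background correction, where the log2 fold changes were 0.82 and 0.45.

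JMJD1B, which acts on the same mark, read 1.68 and 1.50 in UT against 0.99, 1.04 and 0.85 in vit C-treated cells at 8 h. All UT arrays were higher, yet the difference of -0.63 (standard error 0.29, q = 0.447) was not called. At 24, 48 and 96 h the differences were -0.02, -0.35 and 0.17, none called. In the fit that held the slide those of 8, 24 and 48 h were -0.84, -0.23 and -0.65, uncalled as well. From 8 to 96 h JMJD1B rose by 0.97 (q = 0.023) in vit C-treated cells, to 1.87 and 1.98, just short of 2-fold (q between 0.0463 and 0.143 with single arrays left out, and called at 1.01 only without vit C 8 h replicate 2), and had 0.17 (q = 0.746) in UT cells, whose 96 h arrays read 1.62, 1.28 and 2.38. Without the last, replicate 3, the change in UT cells was -0.14 (q = 0.738) and the vit C difference at 96 h was 0.48 (q = 0.179).

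Of the JMJD2 enzymes, JMJD2A read 2.59 and 2.25 in UT at 8 h and 3.41, 2.80 and 2.08 at 96 h, where its arrays spread widely. In vit C-treated cells it read 1.87, 2.01 and 2.12 at 8 h, 1.74 and 1.99 at 24 h, 2.61 and 2.59 at 48 h, and 2.98 and 3.23 at 96 h. All vit C-treated 96 h arrays exceeded those of 8 h, by 1.1 on the log2 scale (standard error 0.29, q = 0.0123), and UT cells had 0.34 (q = 0.497). The UT value was 0.68 (q = 0.0427) without UT 96 h replicate 3. With the slide as a term it was 0.99, which is UT 96 h replicate 1 alone against the UT arrays of 8 h. The call was lost without vit C 96 h replicate 2 and held under the other 12 settings tried. Between the treatments JMJD2A differed by -0.42, -0.21, 0.01 and 0.34 at the 4 times, with no call. The last was -0.00 without UT 96 h replicate 3, and the first 3 were 0.55, 0.76 and 0.98 with the slide as a term, none called.

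JMJD2C read 1.30 and 1.54 in UT at 8 h and 0.36, 0.26 and 1.50 at 96 h, where the last array, replicate 3, stood apart. The vit C-treated arrays read 1.50, 1.49 and 1.03 at 8 h, 0.87 and 0.98 at 24 h, 0.32 and 0.52 at 48 h, and 1.27 and 1.47 at 96 h. At 96 h the groups overlapped through replicate 3 alone, and the difference was 0.66 (standard error 0.34, q = 0.24) on probe 1 and 0.63 (q = 0.342) on probe 2. Without that array both JMJD2C probes were called at 96 h, at 1.06 (q = 0.0157) and 1.17 (q = 0.00689). The change of probe 1 from 8 to 96 h in UT cells was -0.71 (q = 0.197) with it and -1.11 (q = 0.0102) without it. At 48 h vit C-treated cells were lower on both probes without overlap, by -0.54 (q = 0.62) and -0.46 (q = 0.775). The fit that held the slide gave -1.17 on each. It used 1 vit C-treated array and a slide term that rests on the UT 96 h arrays, replicate 3 among them. The 2 probes followed each other over the arrays with r = 0.87.

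Neither JMJD2B nor TET2 was called in any comparison. JMJD2B had vit C differences of 0.17, -0.09, -0.08 and 0.70 at the 4 times, the last with q = 0.304 and with UT 96 h replicate 3 at -2.30 against -0.67 and -0.46 on the other arrays. Without replicate 3 it was 0.13 (q = 0.725). Holding the slide, the first 3 became 0.88, 0.62 and 0.43. The slide term behind these values rests on the UT 96 h arrays, the low replicate 3 among them. The 2 JMJD2B probes agreed poorly (r = 0.42), and probe 2 had -0.81 at 24 h, or -1.85 (q = 0.525) when the slide was held. TET2, dim but above background on all arrays with probe 1, lay between -2.80 and -1.25 over the 19 arrays. It had differences of -0.09, -0.15, -0.35 and -0.53, lower at every time and never called, the last with q = 0.39, while probe 2 had -0.87 (unadjusted p = 0.0481, q = 0.35) at 48 h and 0.09 at 96 h. Probe 1 had -0.87, -0.93 and -1.06 at the first 3 times once the slide was held, again uncalled. These values also rest on a slide term set by the UT 96 h arrays, among which replicate 3 read highest. Without UT 96 h replicate 3, which read -1.25 against -2.54 and -2.26, the 96 h difference was -0.15 (q = 0.757) on probe 1 and 0.49 on probe 2. Without overlap its vit C-treated arrays were lower at 48 h (-2.07 and -2.23 against -1.80 and -1.79). Across arrays JMJD2B and TET2 correlated at r = -0.68, the lowest among the members.

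**Figure D4:**
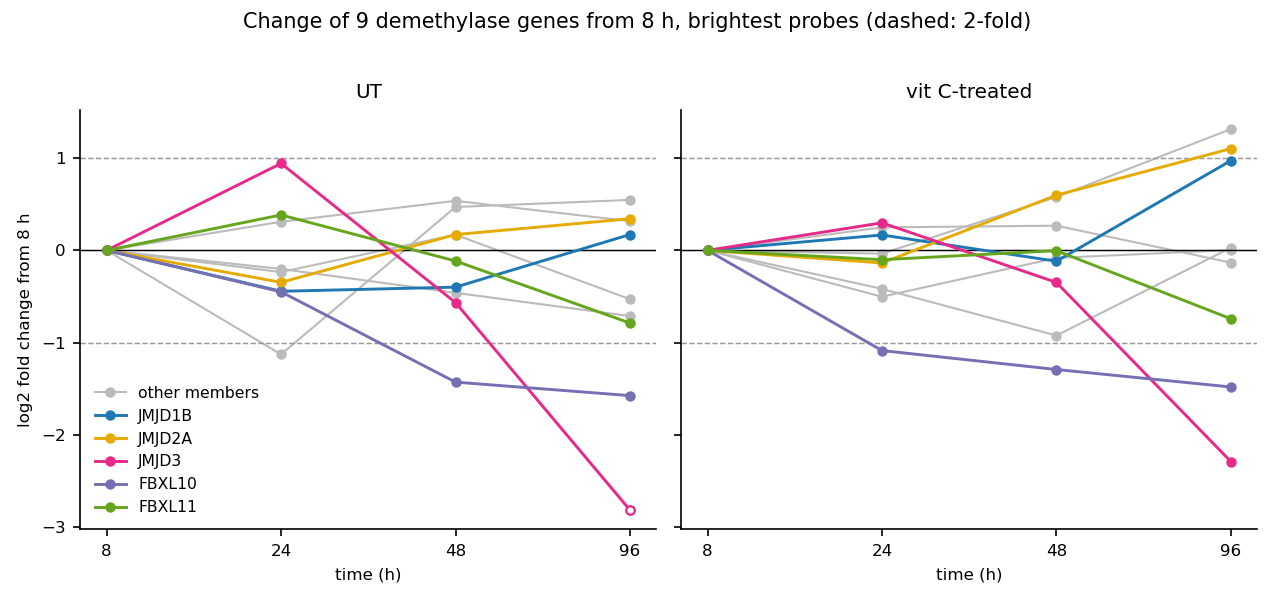
Log2 fold change from 8 h (y axis) of the brightest probes of 9 genes against time (x axis, hours) in UT and vit C-treated cells, with dashed lines at 2-fold. FBXL10 passes the lower line at 24 h in vit C-treated cells and at 48 h in UT cells, the JMJD3 points at 96 h rest on signals at or near background (hollow where no array was well above it) and have no order against FBXL10, and JMJD2A and JMJD1B end at 1.1 and 0.97 in vit C-treated cells. Grey lines are JMJD1A, JMJD2B, JMJD2C and TET2, the highest at 96 h in vit C-treated cells being JMJD1A probe 1 (1.31, q = 0.301).

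Counted over the time courses, 0 of the 16 probes were called in UT cells at 24 h (1.65% of all probes), 2 at 48 h (6.21%) and 3 at 96 h (11.6%). Among vit C-treated arrays there were 2 at 24 h (3.70%), 2 at 48 h (9.61%) and 7 at 96 h (22.2%), UTX included. The calls at 24 and 48 h were the 2 FBXL10 probes, and at 96 h JMJD3 joined them, a call that rests on signals at or near background. The 3 probes called higher were those of JMJD1A and JMJD2A at 96 h in vit C-treated cells, whose slide was another one than that of the 8 h arrays. Whether the later changes differed between the treatments was tested by the F test above.

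Over the 19 arrays, 18577 probes were compared with the brightest FBXL10 probe, each gene taken by its most similar probe. The genes most like it were RABGAP1L (Pearson's r = 0.97), CYP19A1, the aromatase that makes oestrogens (0.97), and CD9, a tetraspanin (0.97). For FBXL11 they were XPC (0.95), RGMB (0.95) and STAT3 (0.95), and for JMJD2A FOXP4 (0.93), CAMK1D (0.90) and PPP1R3G (0.90). Time and slide are shared by all of them, and the values describe likeness over these arrays.

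Related gene lists gave few DRGs. Of their 90 genes on the array the brightest probe called 0 at 8 h (0.261% of all gene names), 1 at 24 h (1.1%), 2 at 48 h (2.47%) and 4 at 96 h (7.41%). In the list of other JmjC and TET dioxygenases 0 of the 18 on the array were called by the brightest probe, and the medians of those detected were -0.15, -0.06, -0.21 and -0.07 at the 4 times. By another probe PHF8 was lower at 48 h (-1.05, q = 0.0148), and JMJD1C (1.17, q = 0.0234) and JARID1B (1.13, q = 0.0381) were higher at 96 h. The brightest probes of PHF8, JMJD1C and JARID1B had -0.21, 0.41 and 0.11 at those times. None of the 9 partners of FBXL10 in its variant Polycomb complex was called, with a median of 0.05 at 24 h, and none of the 3 genes around the flavin-dependent demethylases, which do not use 2-oxoglutarate.

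Among 13 genes of 2-oxoglutarate supply, 2 were called at 48 h, both higher. PSAT1, whose reaction in serine synthesis yields 2-oxoglutarate, rose from 1.65 ± 0.78 (SD, n = 2) in UT to 4.26 ± 0.18 (n = 2) in vit C-treated cells, 2.60 higher on the log2 scale (standard error 0.39, limma q = 0.00385). At 96 h it stood at 4.58 ± 0.57 (n = 3) and 4.27 ± 0.36 (n = 2), a difference of -0.31 (limma q = 0.644). GOT1, a transaminase, rose by 1.24 at 48 h (q = 0.0392) and by 1.33 on another probe (q = 0.0219), and the mitochondrial GOT2 was lower by another than its brightest probe at 24 h (-1.22, q = 0.0457), where the brightest had 0.05 (q = 0.933).

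Among 14 genes of DNA methylation and its removal, UHRF1, which guides maintenance methylation, rose by 1.13 at 24 h (q = 0.0342). CXXC4, a regulator of TET2 protein, was not well above background on either vit C-treated array at 96 h. Its measured difference was -2.10 (q = 0.0374). As a bound, which was not itself tested, it was at least 3.71-fold lower than in UT cells. DNMT3A was lower at 96 h by another than its brightest probe (-1.01, q = 0.00613), and the brightest had -0.10 (q = 0.777). Of 9 AlkB dioxygenases with FTO, ALKBH8, a tRNA modifier, was higher at 96 h (1.07, q = 0.00234). Of 16 histone methyltransferases, ASH1L (1.58, q = 0.0211) and SETD2 (1.1, q = 0.0338), both methyltransferases for the histone residue of the gene-body mark, were higher at 96 h. The list's median at 96 h was -0.22. These calls at 96 h share the limit that treatment and slide cannot be told apart. The calls of the related lists at 24 and 48 h also compared UT arrays of 1 slide with vit C-treated arrays of others. The slide's part in them was not tested.

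**Figure D5:**
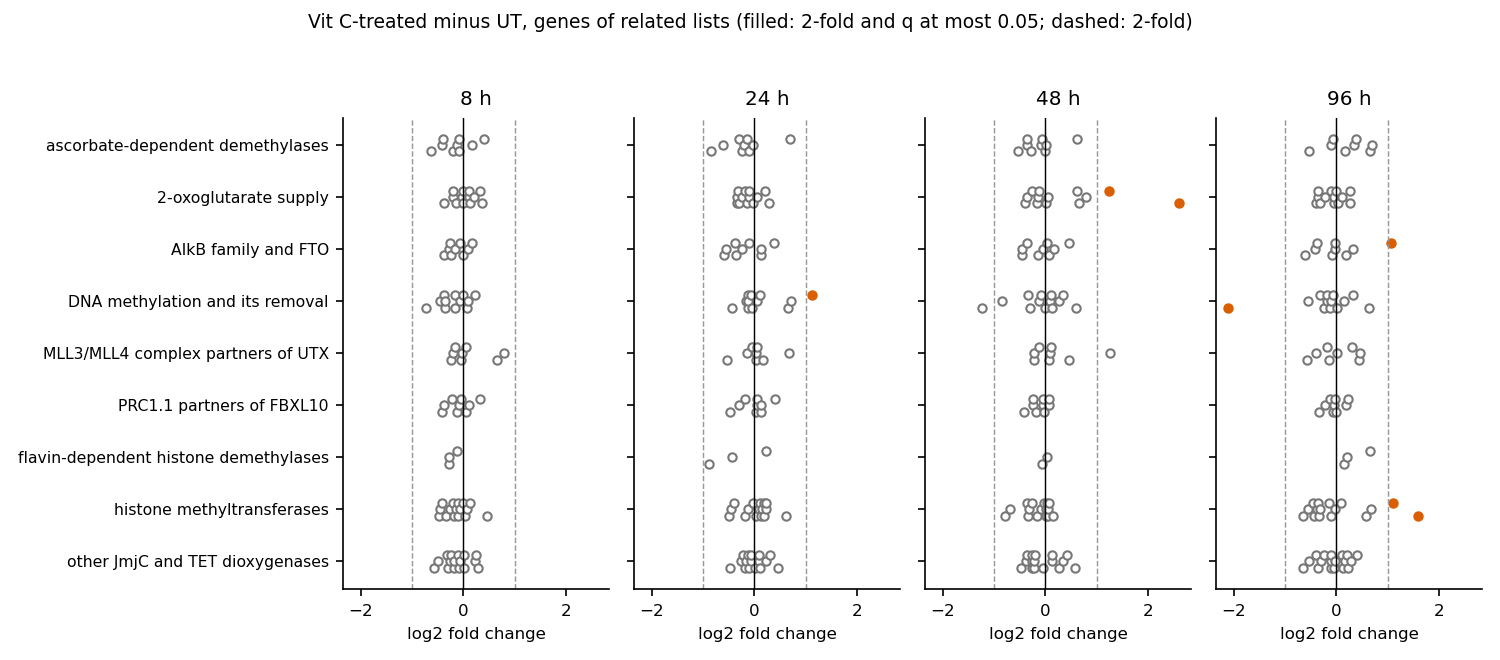
Log2 fold change of vit C-treated against UT cells (x axis) at each time for the detected genes of each list (rows, 1 point per gene by its brightest probe, spread vertically for legibility). Filled points passed 2-fold and the q threshold: UHRF1 at 24 h, PSAT1 and GOT1 at 48 h, and CXXC4 (drawn at its measured difference, -2.10, for which the text gives a bound), ALKBH8, ASH1L and SETD2 at 96 h. The demethylases, with UTX and the 96 h value of JMJD3 left out, have none.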

How the data were processed

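The authors extracted RNA, labelled it with Cy3, hybridized 1 sample per array and set aside RNA of lower quality. They deposited the processed signal intensity of every spot from Agilent Feature Extraction (10.5.1.1 in the file headers) and, in the series matrix, log2 values that they shifted to the 75th percentile of each array. For 50108 probes with 1 spot these log2 values equalled those used here within 0.01.

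Intensities were taken to log2, replicate spots averaged and the 75th percentile (290.2 to 903.5) subtracted. No probe was dropped. Model means of 8 groups were fitted with limma 3.58.1 in R 4.3.3 (lmFit, eBayes, 2-sided), Benjamini-Hochberg over 50238 probes, with thresholds from the methods. The limma fit was tested on simulated data. The number of arrays limits the precision. Members, gene lists and the rule for named genes (all members, called list genes, and the 3 genes most like each of 3 members) were chosen with earlier results of these data known. The methods' t-test and other scalings, blocks and left-out arrays were tried. Same-numbered arrays deviated together with r of -0.11 to 0.09 over 8 pairs and were not treated as paired. The value of 1 marker of another cell type is not reported here.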

Additional observations from a re-analysis of the deposited data

Results flagged for a closer look

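For 3 genes of the related lists limma's F test found that the vit C effect differed between the 4 times. PSAT1 (q = 0.0354) differed between treatments by 0.13, -0.11, 2.60 and -0.31 (log2) at the times from 8 to 96 h. ALKBH8 (q = 0.0346) had -0.00, 0.13, -0.36 and 1.07. For CXXC4 a probe other than the brightest differed (q = 0.00392), and at 96 h, where it was on no vit C-treated array well above background, it was at least 5.39-fold lower than in UT cells. The brightest CXXC4 probe had an F test q of 0.269.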

How the results depend on the processing

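No member probe was called between vit C-treated and UT cells at any time under other scalings, with the slide as a block, with the series matrix values, or with the replicate number as a block (0 probes at each time with the replicate block, which also left the other counts within 1.5 times). At a q of at most 0.05 with any fold 1 probe passed at 24 h, 1 for the averaged effect and 5 for UT cells at 96 h against 8 h. At an unadjusted p with 2-fold, 1 probe passed at 96 h (the dim UTX, with 14.2% of all probes) and 3 the F test (UTX and both FBXL10 probes), which 1 passed with signals floored at 20. The methods' t-test called 0 probes in UT cells at 48 h and at 96 h, 0 in vit C-treated cells at 24 h and 1 at 48 h, where it called 0, 49, 0 and 2660 of all probes, and a fit of the compared groups alone called 0 in vit C-treated cells at 24 h. With single arrays left out, vit C-treated against UT gave 0 to 2 at 96 h and the F test 0 to 1, both highest without UT 96 h replicate 3. The time courses gave 3 to 5 in UT cells at 96 h (5 without the same array), 1 to 2 in vit C-treated cells at 24 h (1 without vit C 24 h replicate 2) and 3 to 8 at 96 h (3 without vit C 96 h replicate 2). Where calls changed, the cause was not tested. With the slide as a fixed block the 96 h comparison could not be fitted. Of the members' fold changes between treatments at the other times, 10 of 27 changed sign under it, against at most 2 under any other setting with all arrays, and 0 became called. The sign changes under the fixed block rest on few arrays. It takes its shift between slides from the UT 96 h arrays, replicate 3 among them, and uses 1 vit C-treated array at 48 h. Signals near background limit JMJD3 and UTX, and 2 or 3 arrays per group limit the rest.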
